A study of Mus musculus with 24 samples.

Results

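The genes described here are 10 transcription factors and repressors of the circadian clock, *Arntl* (also called *Bmal1*), *Clock*, *Npas2*, *Nr1d1*, *Nr1d2*, *Per1*, *Per2*, *Per3*, *Dbp* and *Nfil3*. They were taken by symbol, through the GENCODE M21 annotation, from the 54532 genes of the deposited count tables, and all 10 were found. Messenger RNA was sequenced from 4 tissues of C57BL/6J mice lacking *Trex1* (*Trex1*-/-), namely tongue, muscle, stomach and heart, in 3 samples per group, 8 groups and 24 samples. TREX1 is a nuclease that clears cytosolic DNA, and without it self-DNA drives the cGAS-STING pathway and a lupus-like inflammation. SN-011 is a small-molecule antagonist of STING, and the comparison asks how each tissue's RNA differs when STING is blocked.

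The 4 control groups and the 4 SN-011 groups carry the same deletion of *Trex1*, so no group with an intact *Trex1* is among them. The study's methods give intraperitoneal SN-011 at 10 mg/kg each day for 2 weeks, started at 1 month of age, with 1% Tween 80 in PBS as the vehicle of the controls. The deposited labels give 5 mg/kg on 3 days a week for 4 weeks and describe the controls as untreated. Samples were grouped by the tissue and the control or SN-011 designation, on which the sources do not differ. The hour of the day at which the tissues were collected is not given in the sources used here, and each sample is therefore 1 unknown time of a daily cycle. The samples are whole tissues, in which fewer cells of a type and less RNA per cell cannot be told apart.

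In the mammalian clock, a heterodimer of BMAL1 (*Arntl*) with CLOCK or NPAS2 binds E-box sequences and activates the period genes, the genes of the REV-ERB nuclear receptors (*Nr1d1*, *Nr1d2*) and *Dbp*. The period proteins enter the nucleus and inhibit the heterodimer, and the REV-ERBs repress *Arntl*, *Clock*, *Npas2* and *Nfil3* through their own response elements. DBP and NFIL3 compete for D-box sequences, DBP as an activator and NFIL3 as a repressor, and in heart, muscle and other organs the transcripts of the activators peak at another time of day than those of *Dbp*, the REV-ERBs and the period genes. *Per1* and *Per2* are also induced directly by glucocorticoids, feeding, temperature and stress signals.

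Total counts were 14253416 to 18443329 per sample, with a median of 16221409, and 3 counts, taken as the smallest detectable abundance, corresponded to 0.163 to 0.210 CPM, a floor that covers counting error only. Each of the 10 genes passed the filter on low counts in every tissue, and 9 of them had at least 10 counts in all 24 samples. The exception was *Per3*, with 9 counts in muscle SN-011 replicate 2. That library had counts on 11546 genes, against 19798 to 24264 in the other 23. *Trex1* had 0 counts in all 24 samples. The 4 samples of control replicate 1 had 3060 to 13811 counts of *Xist*, the transcript of the inactive X chromosome, and at most 3 of the Y-linked *Ddx3y*, against at most 20 and at least 825 in the other 20 samples. By these counts control replicate 1 was female in each tissue and all other samples were male. Sex was thus unbalanced between the groups, and leaving out control replicate 1 also removes the only female sample of a tissue. The part of sex in the levels of the clock genes was not tested. The marker genes of each tissue were high in it, but stomach markers were also found elsewhere in some controls. Their summed level in the heart was 23.3, 2771 and 282 CPM in control replicates 1 to 3, against 5.98 to 46.4 CPM in the SN-011 samples. In the tongue it was 48.7, 2937 and 2431 CPM in the controls and 12.7 to 43.8 CPM in the SN-011 samples, and in the muscle 40.4 to 696 CPM against 11.7 to 37.0 CPM. Whether this material bears on the clock genes was not tested.

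The promoter windows of the clock genes were searched for the letters that the clock factors are known to bind, and the stretches that hold them are shown because these letters belong to the loops described above. RefSeq windows (GRCm38.p6, 250 bases before to 50 after each start site) were at hand for 9 of the 10 genes, *Per2* being the other one, in 13 windows. The strings were the E-box CACGTG, the E-prime box CACGTT, the D-box TTATGTAA or TTACGTAA, the core AGGTCA of REV-ERB response elements, and the cAMP response element TGACGTCA, each on both strands, and none of them lies inside another. Capitals mark the matches, written on the strand of the gene, so that TGACCT is AGGTCA and AACGTG is CACGTT on the other strand.
Per1 (chr11:69098759-69098838, plus strand): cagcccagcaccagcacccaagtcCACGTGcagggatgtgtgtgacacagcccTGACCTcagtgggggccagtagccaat
Per3 (chr4:151044791-151044890, minus strand): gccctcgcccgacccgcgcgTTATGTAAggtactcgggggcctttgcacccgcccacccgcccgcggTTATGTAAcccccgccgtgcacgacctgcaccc
Nr1d1 (chr11:98775388-98775437, minus strand): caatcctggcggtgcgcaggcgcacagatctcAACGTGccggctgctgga
Arntl (chr7:113207531-113207560, plus strand): aggcagaaagtAGGTCAgggacggaggtgc

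The *Per1* window held an E-box 166 bases before the start site and an AGGTCA core 137 bases before it. Of the members with a window, *Per3* alone matched either of the D-box strings, and it had 2 matches, 205 and 158 bases before the start site. Other spellings of the D-box were not searched. A D-box was present in 1.06% of all 32851 promoter windows of this length, an E-box in 7.15% and an E-prime box in 4.68%. *Nr1d1* held the E-prime box 28 bases before its start. The AGGTCA core was found in *Arntl*, *Clock*, *Nr1d2*, *Per1* and *Nfil3*, that is in 5 of their 13 windows, against 16.3% of all windows, and the cAMP response element in 0 of the 13 against 1.79%. These are matches of letters within 300 bases and not measured binding sites.

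Levels can be compared between genes only per length of exon. In CPM per kilobase of exon, *Nr1d1*, *Per1*, *Nr1d2*, *Dbp* and *Nfil3* stood above *Arntl*, *Clock*, *Npas2*, *Per2* and *Per3* in the mean of the heart and muscle controls. In the muscle, the mean level over the 3 controls was 81.7 ± 10.04 for *Nr1d1*, 27.2 ± 23.99 for *Per1*, 26.4 ± 5.84 for *Nr1d2* and 22.5 ± 10.3 CPM per kilobase for *Nfil3* (SD, n = 3). *Arntl* was at 5.47 ± 2.43 there and *Npas2*, the paralog of *Clock*, at 0.871 ± 0.235 CPM per kilobase. *Per2* lay between 1.18 and 1.79 CPM per kilobase in the control means of all 4 tissues.

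The levels of the clock genes differed between the tissues of the control mice. In a joint edgeR fit of all 24 samples, 21 of the 60 comparisons of 1 gene between a pair of tissues passed an adjusted p of 0.05, at a background over all 19731 genes of 42.5% (heart and stomach), 33.7% (heart and muscle), 29.1% (heart and tongue), 51.6% (stomach and muscle), 36.9% (stomach and tongue) and 38.1% (muscle and tongue), so that the share among the clock genes lay within the range of the background. Muscle had the highest level of *Nr1d2*, with log2 differences of −1.503 ± 0.316 (SE) for heart minus muscle, −2.30 ± 0.32 for stomach minus muscle and 1.07 ± 0.31 for muscle minus tongue (adjusted p of 9.24e-04, 5.65e-06 and 0.00966). Muscle *Nr1d1* and *Nfil3* also exceeded the other 3 tissues, the *Nfil3* differences in the same order being −1.49 ± 0.33, −2.32 ± 0.34 and 2.21 ± 0.34. *Clock* was higher in the tongue than in each of the other tissues, whose log2 difference from it was −0.81 to −0.63, and heart, stomach and muscle were not separated from each other. For *Dbp* the order was muscle, heart, tongue, stomach, and the differences that passed were those of the stomach, which lay below the heart by 2.47 ± 0.94 (adjusted p = 0.0392) and below the muscle (stomach minus muscle −3.23 ± 0.97, adjusted p = 0.00845). For *Per1* and *Per2* none of the 6 pairs of tissues passed, with adjusted p of at least 0.138.

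When SN-011 was compared with control in each tissue, *Nfil3* and *Nr1d1* were the clock genes that passed the test. In the heart *Nfil3* rose and *Nr1d1* fell with an adjusted p below 0.05, and these 2 of 10 compare with 0.848% of the 16151 genes tested there (0.52% higher, 0.328% lower). Neither passed in the joint edgeR fit of all 24 samples, where the adjusted p was 0.306 for *Nfil3* and 0.641 for *Nr1d1*. No clock gene passed in the other 3 tissues, where edgeR called 0% (stomach), 0.0141% (muscle) and 0% (tongue) of all genes. An unadjusted p under 0.05 was found for 3 (heart), 4 (stomach), 5 (muscle) and 4 (tongue) of the 10 clock genes, against 22.4%, 24.6%, 14.8% and 12.5% of all genes. This was 4183 genes in the stomach and 2074 in the tongue, where DESeq2 called 2389 and 418. *Nfil3* lay above the control range in all 3 SN-011 samples in each of the 4 tissues, and *Nr1d1* had a lower mean in each of the 4. Counted over the 10 genes, heart groups did not overlap for 2 higher and 1 lower, at a background of 14.1% and 13.1% of all genes. The stomach had 3 higher and 0 lower (17.8% and 15.2%), the muscle 2 and 3 (14.7% and 19.8%) and the tongue 2 and 1 (9.4% and 8.38%). By both counts the heart and stomach were nearer to the background than the muscle and tongue. The median log2 fold change of the 10 genes was 0.11, 0.44, 0.35 and 0.11 from heart to stomach, muscle and tongue, against −0.01, 0.00, −0.08 and −0.01 for all genes. The treatment of a mouse is shared by its tissues, and since the same mice may stand behind the same replicate numbers, the 4 tissues may not be 4 independent comparisons.

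**Figure D1:**
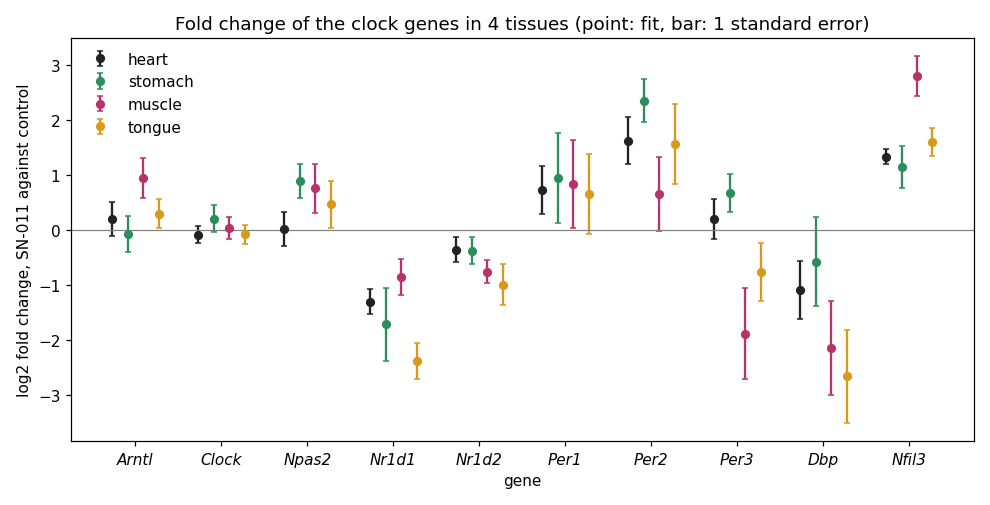
Log2 fold change of SN-011 against control (vertical axis) for each clock gene (horizontal axis) in the 4 tissues, with points for the edgeR estimate and bars for 1 standard error, 3 samples per group. *Nr1d1*, *Nr1d2* and *Dbp* lie below 0 and *Nfil3*, *Per1*, *Per2* and *Npas2* above 0 in all 4 tissues, and in the heart *Nr1d1* and *Nfil3* passed the adjusted threshold.

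*Nfil3*, the D-box repressor, was higher in every treated sample than in any control of its tissue. Its gene lies at chr13:52967209-52981073 on the minus strand (GRCm38). In the heart the controls had 20.03, 17.1 and 17.3 CPM and the SN-011 samples 44.9, 51.8 and 40.8 CPM, in the order of the replicate numbers. Every treated heart exceeded every control heart, and the log2 fold change was 1.33 ± 0.14 (SE), with an adjusted p of 0.00934 in edgeR's quasi-likelihood test. The adjusted p was 0.0738 without SN-011 replicate 1 and 0.0766 without SN-011 replicate 2, at log2 fold changes of 1.35 and 1.24, and stayed below 0.05 without any one of the other 4 hearts. Control muscles had 30.7, 13.98 and 38.2 CPM, and SN-011 muscles 183, 210 and 181 CPM. The treated muscles were tightly grouped and far above the controls, a log2 fold change of 2.79 ± 0.37, yet the adjusted p was 0.0764. It fell below the threshold, at 0.0224, when muscle SN-011 replicate 2 was left out, with a fold change of 2.72.

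The stomach gave 14.4, 6.55 and 11.98 CPM of *Nfil3* in the controls and 33.3, 16.5 and 22.8 CPM with SN-011, where the lowest treated sample was just above the highest control. In the tongue the controls had 9.71, 9.19 and 16.1 CPM and the SN-011 samples 28.9, 39.6 and 37.6 CPM, a clear gap. The log2 fold changes were 1.14 ± 0.38 (adjusted p = 0.131) and 1.60 ± 0.25 (adjusted p = 0.263), and the latter passed at 0.0114 when tongue control replicate 1 was left out. The joint fit tested whether the effect differed between tissues. Of 60 such tests on the clock genes 1 passed, *Nfil3* in the stomach minus *Nfil3* in the muscle, −1.59 ± 0.46 on the log2 scale (adjusted p = 0.0409), for a pair of tissues in which 6.95% of all genes passed. The other pairs had a background of 2.01% (heart and stomach), 0.00507% (heart and muscle), 0% (heart and tongue), 0.821% (stomach and tongue) and 0.0355% (muscle and tongue). The other *Nfil3* differences from the muscle were −1.37 ± 0.45 for the heart and 1.09 ± 0.45 for muscle minus tongue, with adjusted p of 0.541 and 0.534.

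*Nr1d1*, which encodes REV-ERB alpha (chr11:98767932-98775333, minus strand), had lower means. Control hearts had 86.3, 94.6 and 55.4 CPM and treated hearts 35.8, 37.0 and 23.3 CPM. The lowest control was above the highest treated heart, and the log2 fold change was −1.30 ± 0.23 with an adjusted p of 0.0444. This call was lost without control replicate 1 (adjusted p = 0.0664) and without SN-011 replicates 1, 2 or 3 (0.172, 0.181 and 0.1002), while the fold change stayed between −1.50 and −1.12. Control tongues had 137, 92.6 and 55.0 CPM against 20.1, 19.9 and 15.01 CPM with SN-011. The 3 treated tongues were alike and all below the controls, the controls spread over a wide range, and at a log2 fold change of −2.37 ± 0.33 the adjusted p was 0.221. Without tongue control replicate 1 it was −2.01, with an adjusted p of 0.00314.

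For the muscle, *Nr1d1* was at 135, 155 and 166 CPM in the controls and at 123, 48.2 and 83.2 CPM with SN-011. The treated samples lay below the controls, SN-011 replicate 1 only slightly, and the log2 fold change was −0.84 ± 0.32 (adjusted p = 0.311), or −0.56 without SN-011 replicate 2. In the stomach the controls spread from 89.9 over 25.9 to 11.7 CPM and the treated samples had 15.8, 8.97 and 14.003 CPM. Control replicate 3 was within the treated range there, and the log2 fold change of −1.71 ± 0.66 (adjusted p = 0.163) became −0.57 without control replicate 1. The counts of *Nr1d1* may include reads of *Thra*, a thyroid hormone receptor gene on the other strand that shares 263 exonic bases with it, since the study's methods describe strand-specific libraries but the strand setting of the counting is not given in the sources used here. *Thra* itself did not pass in any tissue. Its log2 fold change was between −0.13 and −0.05 in the heart, muscle and tongue and 1.07 in the stomach, the sign there being opposite to that of *Nr1d1*.

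*Nr1d2*, which encodes the related receptor REV-ERB beta, had a smaller fold change than *Nr1d1* in every tissue. Hearts had 37.2 to 73.5 CPM in the controls and 38.7 to 49.8 CPM with SN-011, and stomachs 28.96 to 41.1 against 21.9 to 31.7 CPM. Muscles had 67.8 to 107 against 41.7 to 57.04 CPM, and tongues 38.7 to 124 against 37.6 to 42.3 CPM. The muscle was the tissue in which the groups did not overlap. The log2 fold changes were −0.35 ± 0.22, −0.37 ± 0.25, −0.75 ± 0.21 and −0.99 ± 0.37, and the adjusted p was 0.382, 0.380, 0.216 and 0.370 in edgeR's test.

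*Dbp*, the D-box activator and a direct output of the clock (chr7:45705088-45710203, plus strand), had lower means with SN-011 in every tissue. The REV-ERB genes did too, but *Dbp* had a wider spread. In the heart the controls had 35.5, 73.5 and 14.8 CPM and the SN-011 samples 10.3, 18.5 and 29.5 CPM. In the tongue they had 63.7, 41.6 and 4.06 CPM against 3.88, 6.15 and 7.41 CPM. Control replicate 3 fell among or near the treated samples in both tissues, whereas control replicates 1 and 2 were above all of them. The muscle controls had 17.5, 84.7 and 10.99 CPM and the treated muscles 8.24, 3.92 and 13.4 CPM, so that replicate 2 alone carried most of the mean. The stomach had the lowest *Dbp* of the 4 tissues, at 14.4, 8.48 and 0.909 CPM in the controls and 6.83, 2.84 and 6.20 CPM with SN-011. The lowest of these was the control replicate 3.

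The log2 fold changes of *Dbp* were −1.08 ± 0.53 (heart), −0.57 ± 0.81 (stomach), −2.14 ± 0.86 (muscle) and −2.65 ± 0.84 (tongue). None passed, with adjusted p of 0.269, 0.690, 0.327 and 0.327, and the groups overlapped in all 4 tissues. The muscle value became −0.75 without control replicate 2, and the stomach value 0.14 without control replicate 1. *Dbp* shares 539 exonic bases with *Sphk2* on the other strand, and the log2 fold change of *Sphk2* was between −0.17 and 0.29 in the 4 tissues, without a call.

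**Figure D2:**
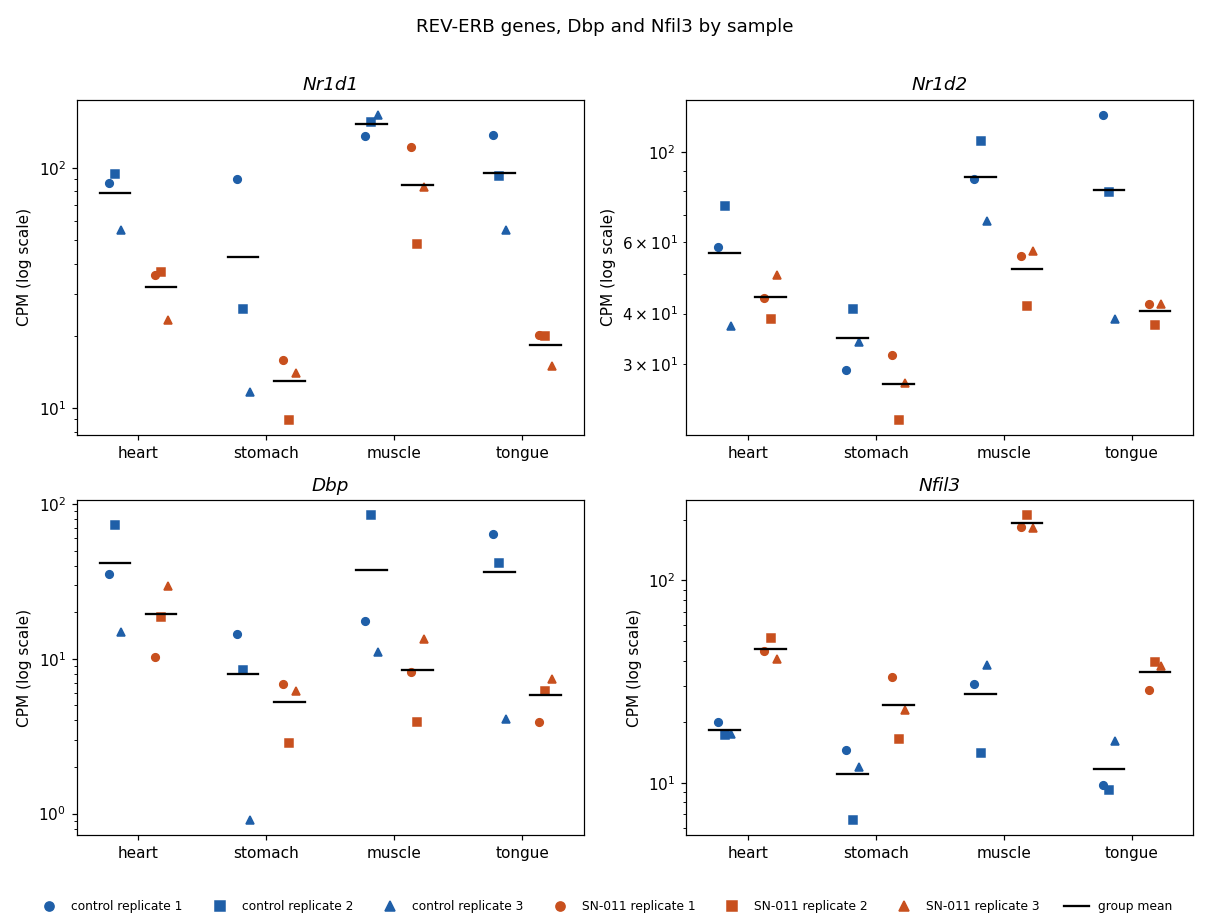
CPM on a log scale (vertical axis) of *Nr1d1*, *Nr1d2*, *Dbp* and *Nfil3* in each sample of the 4 tissues (horizontal axis), with controls in blue, SN-011 in orange, symbols for replicate numbers 1 to 3 and lines for group means. *Nfil3* lies above the controls in all SN-011 samples of every tissue, *Nr1d1* lies below them in the heart, muscle and tongue, and control replicate 3 has the lowest *Dbp* of the controls in every tissue.

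The period genes split into *Per1* (chr11:69095217-69109960, plus strand) and *Per2* (chr1:91415982-91459324, minus strand), with higher means after SN-011 in all 4 tissues, and *Per3* (chr4:151003652-151044665, minus strand), without a common direction. *Per1* in the heart was at 198, 132 and 40.7 CPM in the controls and 178, 192 and 245 CPM with SN-011. Stomach controls had 144, 27.6 and 8.40 CPM and treated stomachs 124, 100 and 124 CPM. The controls were far apart, with replicate 1 the highest and replicate 3 the lowest, whereas the treated samples were close together, above control replicates 2 and 3.

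The same arrangement was present in the other tissues. *Per1* was at 180, 90.8 and 11.7 CPM in control muscles and 162, 173 and 168 CPM in treated muscles. It was at 241, 63.3 and 23.0 CPM in control tongues and 138, 179 and 202 CPM in treated tongues. In the stomach, muscle and tongue all 3 SN-011 values were inside the range of the controls. The highest control exceeded the lowest by 4.87-fold (heart), 17.2-fold (stomach), 15.4-fold (muscle) and 10.5-fold (tongue), against 1.07-fold to 1.47-fold among the SN-011 samples. The log2 fold changes, 0.73 ± 0.44, 0.95 ± 0.82, 0.83 ± 0.80 and 0.66 ± 0.73 from heart to tongue, did not pass (adjusted p of 0.366, 0.502, 0.690 and 0.709). That of the tongue became 2.00, with an adjusted p of 0.0175, when control replicate 1 was left out.

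*Per2* lay above the controls in all SN-011 samples of the heart, stomach and tongue. The heart controls had 13.7, 13.9 and 5.35 CPM and the treated hearts 21.02, 26.2 and 54.2 CPM. In the stomach they were at 5.65, 12.5 and 9.15 CPM against 31.5, 42.6 and 65.8 CPM, the widest gap of the 3 tissues. Tongue controls had 19.5, 15.7 and 2.00 CPM and treated tongues 31.8, 21.2 and 56.8 CPM, so that the lowest treated sample was only slightly above control replicate 1. The log2 fold changes were 1.63 ± 0.42 (adjusted p = 0.0897), 2.35 ± 0.39 (0.0618) and 1.56 ± 0.73 (0.422). Muscle *Per2* was at 4.75, 6.79 and 1.06 CPM in the controls and 4.87, 6.12 and 8.84 CPM with SN-011. The groups overlapped there, at a log2 fold change of 0.66 ± 0.68 and an adjusted p of 0.710. SN-011 replicate 3 was the highest treated sample for *Per2* in each of the 4 tissues.

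*Per3* showed 11.2 to 29.1 CPM in control hearts and 13.97 to 30.3 CPM in treated hearts, and 8.51 to 12.8 against 10.9 to 21.7 CPM in the stomach. The groups overlapped in both, at log2 fold changes of 0.20 ± 0.37 and 0.68 ± 0.35. In the tongue the controls were at 54.4, 32.5 and 14.3 CPM and the SN-011 samples at 10.7, 18.8 and 30.3 CPM, again with overlap (−0.76 ± 0.52, adjusted p = 0.556). The muscle controls had 22.2, 31.9 and 12.5 CPM and the treated muscles 6.36, 0.734 and 10.8 CPM. All treated muscles were below the controls, and the lowest of them was SN-011 replicate 2, the library with counts on the fewest genes. The log2 fold change was −1.88 ± 0.83 (adjusted p = 0.363), and −1.36 without that library (adjusted p = 0.0891). The difference of the *Per3* effect, stomach minus muscle, was 2.54 ± 0.91 with an adjusted p of 0.0914, and heart minus muscle was 2.09 ± 0.90 (adjusted p = 0.715).

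**Figure D3:**
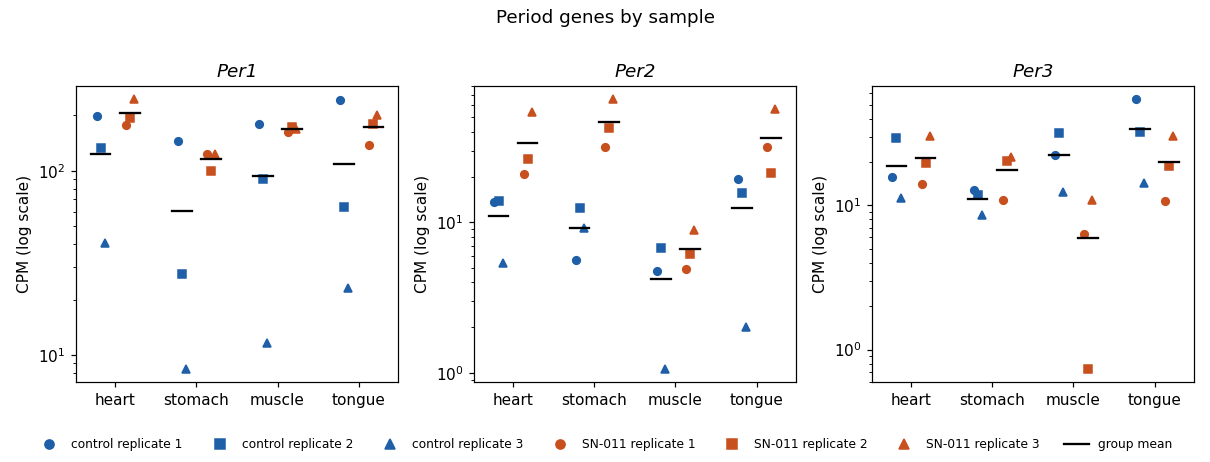
CPM on a log scale (vertical axis) of *Per1*, *Per2* and *Per3* in each sample of the 4 tissues (horizontal axis), with controls in blue, SN-011 in orange, symbols for replicate numbers and lines for group means. Control replicate 3 has the lowest *Per1* and *Per3* of the controls in every tissue, and the SN-011 samples of *Per1* stay within 1.47-fold of each other.

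No activator passed the test in any tissue. *Arntl*, the gene of BMAL1 (chr7:113207465-113314126, plus strand), was at 16.3, 13.9 and 25.0 CPM in control hearts and 28.6, 22.6 and 12.3 CPM in treated hearts. The heart groups overlapped in full, since the treated samples held both the highest and the lowest value. Control muscles had 21.01, 16.7 and 36.9 CPM and treated muscles 63.1, 33.6 and 46.9 CPM. Scaled over all samples, the control mean of *Arntl* was highest in the muscle. The difference of control stomach and muscle did not pass in the joint edgeR fit (adjusted p = 0.0664). Control tongues had 13.2, 11.5 and 22.0 CPM and treated tongues 18.8, 21.7 and 16.9 CPM, and in the stomach the values were 15.1, 32.3 and 35.3 CPM against 25.0, 28.2 and 25.9 CPM. In the stomach and tongue all treated samples were inside the control range. The log2 fold changes were 0.20 ± 0.31 (heart), −0.07 ± 0.33 (stomach), 0.94 ± 0.36 (muscle) and 0.30 ± 0.26 (tongue), none of which passed (adjusted p of 0.746, 0.919, 0.308 and 0.640).

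*Clock*, the DNA-binding partner of BMAL1, was at 40.3 to 45.4 CPM in control hearts and 33.7 to 49.4 CPM in treated ones, and 40.6 to 62.5 against 54.5 to 65.7 CPM in stomachs. Muscles had 20.6 to 32.4 against 24.3 to 29.3 CPM and tongues 66.5 to 97.8 against 66.4 to 81.3 CPM. The log2 fold change was between −0.08 and 0.21 in the 4 tissues, with SE of 0.15 to 0.24. *Npas2*, which can take the place of *Clock* in the heterodimer, was at 8.61 to 13.7 CPM in control stomachs and 15.4 to 23.98 CPM in treated ones, without overlap. Muscle *Npas2* was low in both groups, at 1.87 to 3.18 against 3.69 to 5.19 CPM, also without overlap. In the heart and tongue the groups overlapped, and the log2 fold changes from heart to tongue were 0.03 ± 0.30, 0.89 ± 0.31, 0.76 ± 0.44 and 0.47 ± 0.43, with the lowest adjusted p, 0.134, in the stomach.

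**Figure D4:**
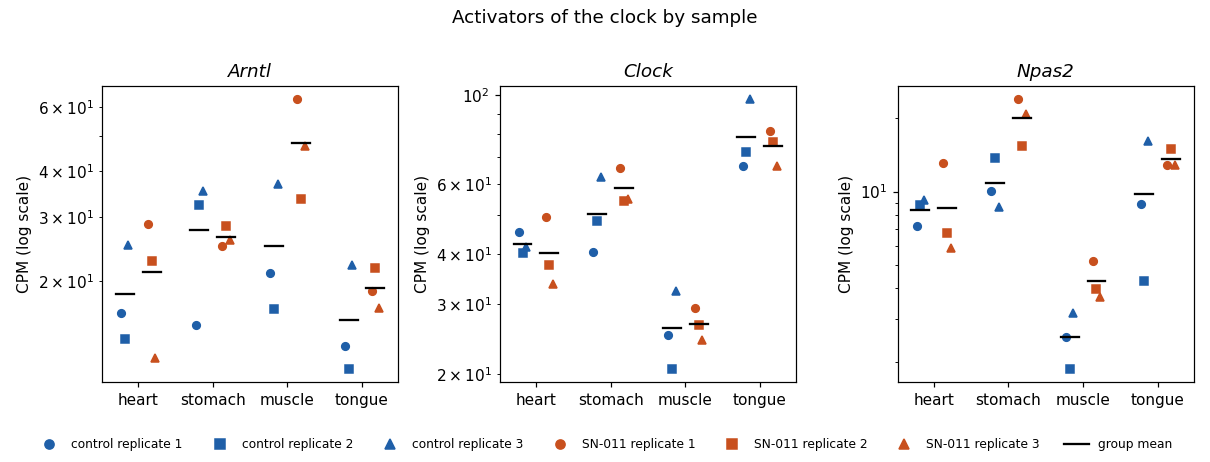
CPM on a log scale (vertical axis) of *Arntl*, *Clock* and *Npas2* in each sample of the 4 tissues (horizontal axis), with controls in blue, SN-011 in orange, symbols for replicate numbers and lines for group means. Control replicate 3 has the highest *Arntl* of the controls in every tissue, and its groups overlap in all 4 tissues.

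The activators and the repressors took opposite orders among the control samples. Among the controls, replicate 3 had the lowest value in 21 of the 24 combinations of tissue with *Nr1d1*, *Nr1d2*, *Per1*, *Per2*, *Per3* or *Dbp*, and the highest in 10 of the 12 combinations of tissue with *Arntl*, *Clock* or *Npas2*. Such orders were not counted over all genes, so whether they are particular to the clock genes is not known. The combinations are also not independent, since the tissues may share mice. Control replicates 1 and 2 held the highest value of the repressors and *Dbp* in 12 and 11 of the 24. Replicate 3 had the highest *Arntl* and the lowest *Per1*, *Per3* and *Dbp* of the controls in 4 of 4 tissues, and replicate 2 the lowest *Nfil3* in 4 of 4. Among the SN-011 samples, replicate 3 had the highest value of the repressors and *Dbp* in 15 of the 24 and replicate 1 in 7, while replicates 1 and 2 had the lowest in 11 each. For the activators SN-011 replicate 1 was the highest in 9 of the 12 and replicate 3 the lowest in 8. Samples with the same number may come from 1 mouse, as deviations from the group mean over 7337 genes correlated at 0.282 on average between control samples of the same number in different tissues and at −0.131 between those of different numbers. The corresponding values were 0.0918 and −0.0457 for SN-011. Because deviations from the mean of 3 samples sum to 0, the value for different numbers follows largely from that for the same number. The labels do not say that the numbers name mice.

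An index of the phase pattern, the mean of the 3 activators minus the mean of the 6 genes *Nr1d1*, *Nr1d2*, *Per1* to *Per3* and *Dbp*, was computed for each sample from log2 CPM relative to the mean of the tissue. *Nfil3* was left out of it. In control replicate 3 the index was positive in every tissue, at 1.06 (heart), 1.21 (stomach), 0.87 (muscle) and 1.68 (tongue). In control replicate 1 it was negative in every tissue, at −0.32, −1.07, −0.89 and −1.60. Control replicate 2 was at −0.67, 0.09, −1.71 and −1.18, negative in all but the stomach. SN-011 replicate 1 was positive in every tissue, at 0.80, 0.05, 0.67 and 0.63, and SN-011 replicate 3 negative, at −0.84, −0.33, −0.03 and −0.08. SN-011 replicate 2 was at −0.03, 0.06, 1.09 and 0.56.

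The treated samples were inside the range of the controls in the stomach and tongue. In the heart SN-011 replicate 3, at −0.84, was the lowest sample, and in the muscle SN-011 replicate 2, at 1.09, was the highest. The group means were 0.02 ± 0.92 and −0.02 ± 0.82 (SD, n = 3, control and SN-011) for hearts, 0.07 ± 1.14 and −0.07 ± 0.23 for stomachs, −0.58 ± 1.32 and 0.58 ± 0.57 for muscles and −0.37 ± 1.79 and 0.37 ± 0.39 for tongues. The difference of the means of this index was smaller than the SD of the controls in all 4 tissues. Its repressor mean joins genes with opposite fold changes, *Per1* and *Per2* above 0 and *Nr1d1*, *Nr1d2* and *Dbp* below 0. With *Arntl* and *Npas2* against *Nr1d1*, *Per3* and *Dbp* alone, the difference was 0.71 (heart), 0.67 (stomach), 2.57 (muscle) and 2.14 (tongue). The control SDs were 0.98, 1.47, 1.17 and 1.83, and the difference exceeded them in the muscle and tongue. This set leaves out *Per1* and *Per2*, whose fold changes were above 0. Its larger difference therefore follows in part from the choice of genes and is no test of a phase pattern. On the log2 scale, the SD of the controls exceeded that of the SN-011 samples for 6, 8, 8 and 10 of the 10 genes from heart to tongue. Over all genes tested the controls had the larger SD for 60.1%, 67.1%, 21.9% and 70.5%. In the muscle, where these shares lay farthest apart, SN-011 replicate 2 is the library with counts on the fewest genes.

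**Figure D5:**
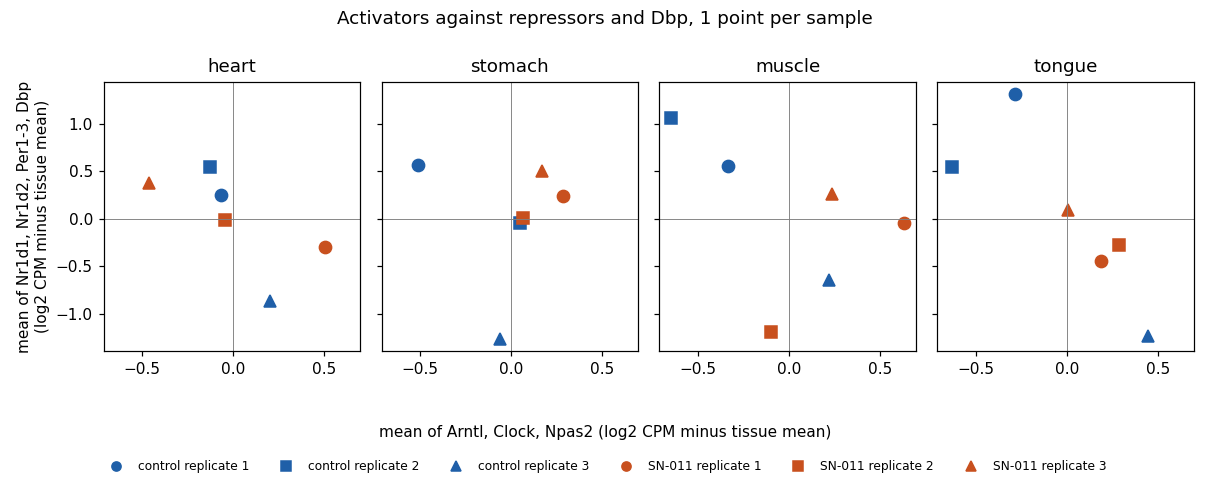
Each point is a sample, placed by the mean of *Arntl*, *Clock* and *Npas2* (horizontal axis) and the mean of *Nr1d1*, *Nr1d2*, *Per1* to *Per3* and *Dbp* (vertical axis), both as log2 CPM minus the mean of the tissue, with controls in blue, SN-011 in orange and symbols for replicate numbers. Control replicate 3 is the lowest sample on the vertical axis in the heart, stomach and tongue, and muscle SN-011 replicate 2 in the muscle.

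Pearson correlations describe how the members moved together over the 24 samples, after removal of the tissue means. The samples share tissues, mice and treatment, so the coefficients carry no test. *Dbp* correlated with *Nr1d2* at 0.812, with *Nr1d1* at 0.716 and with *Per3* at 0.693, and with *Arntl* at −0.681. Among 12513 genes tested in all tissues with at least 1 CPM, *Nr1d2* was the most like *Dbp*, followed by *Pcolce* (0.728), *Nr1d1*, *Nubpl* (0.704) and *Ext2* (0.701). The most opposite were *1110038B12Rik* (−0.776), *Lpar6* (−0.717), *Gemin6* (−0.689), *Cth* (−0.685) and the clock repressor *Cry1* (−0.682). *Arntl* was closest to *Slc25a30* (0.769), *Hnrnpu* (0.761), *Nup188* (0.704), *Map3k1* (0.672) and *Gnptg* (0.651). Its correlation with *Npas2* was 0.624 and that with *Clock* 0.618. At the other end were *Lrfn4* (−0.687), *Dbp*, *Col14a1* (−0.641), *Rab3il1* (−0.636) and *Rps27a* (−0.634).

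With the means of each treatment removed as well, so that only differences within groups were left, *Arntl* and *Clock* correlated at 0.801. *Per1* and *Per2* then joined *Dbp*, at 0.736 and 0.662, against 0.279 and 0.0880 when the treatment means were kept. *Nfil3* and *Nr1d1* changed from −0.608 with the treatment means kept to 0.161 within groups. *Arntl* and *Dbp* kept a negative coefficient among samples of the same treatment (−0.601).

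Of 16 other clock genes, 15 were tested in the heart and stomach and 14 in the muscle and tongue. The median log2 fold change of the tested genes of this list was 0.24, 0.43, 0.25 and 0.05 from heart to tongue. None of the 8 clock-driven output genes listed passed in any tissue, with medians of 0.39, 0.47, 0.48 and 0.39. Of all genes 0.848% (heart), 0% (stomach), 0.0141% (muscle) and 0% (tongue) passed.

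The 10 listed glucocorticoid targets share *Per1* with the clock genes and another gene with the listed outputs. Their log2 fold changes were positive for 10 of 10 (heart), 8 of 10 (stomach), 8 of 9 tested (muscle) and 9 of 10 (tongue), against 48.6%, 50.2%, 44.5% and 48.5% of all genes. The medians of these targets were 1.05, 1.18, 1.34 and 0.75. In the heart 1 passed, the metallothionein gene *Mt1*, from 584, 418 and 273 CPM to 1134, 1514 and 1108 CPM, at 1.56 ± 0.27 (adjusted p = 0.0403). Their summed level was 626 to 1567 CPM in control hearts and 2199 to 2718 CPM in treated hearts. All 7 interferon-stimulated genes had negative log2 fold changes in each tissue, with medians of −0.51, −1.07, −1.11 and −0.92 from heart to tongue. The value nearest to 0 in the heart, −0.00087, was no change in practice. In edgeR's test 1 of the 7 passed, the chemokine gene *Cxcl10* in the heart (−1.49 ± 0.24, adjusted p = 0.0332), where 0.328% of all genes were called lower. The sum of the 7 was 2151 to 3256 CPM in control tongues and 1481 to 1855 CPM in treated ones. In the heart it was 3072 to 3739 against 2327 to 3338 CPM, with overlap, and the sums were not tested. Immediate early genes gave medians between −0.15 and 0.09 and no call.

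Summed levels of markers of other cell types were set beside the clock genes. No marker gene passed the adjusted threshold in any tissue. That threshold was passed by 0.848% (heart), 0% (stomach), 0.0141% (muscle) and 0% (tongue) of all genes. The stomach markers tested had median log2 fold changes of −4.56 in the heart, −4.17 in the muscle and −6.04 in the tongue. In the heart the 3 fibroblast markers summed to 1273 to 2107 CPM in the controls and 686 to 1004 CPM with SN-011, the 3 erythroid markers to 428 to 1174 against 1187 to 2214 CPM, and the 5 leukocyte markers to 246 to 532 against 227 to 277 CPM. In the muscle the fibroblast sum was 673 to 1041 CPM against 278 to 435 CPM. It overlapped in the stomach (616 to 832 against 420 to 1746 CPM) and in the tongue (163 to 365 against 125 to 244 CPM). In the stomach the 5 markers of squamous epithelium summed to 74.9 to 148 CPM in the controls and 325 to 845 CPM with SN-011, and the 6 stomach markers to 46692 to 151831 against 20412 to 115659 CPM. In the tongue the squamous markers spanned 9730 to 54459 CPM in the controls, the lowest being replicate 1. *Krt5*, *Krt6a* and *Sprr3* were at 0 in all hearts and muscles, and *Myh4* was at 0 in all stomachs. The part of these cells in the levels of the clock genes was not tested.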

How the data were processed

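Polyadenylated RNA of 24 samples was sequenced in read pairs. The authors deposited raw counts per gene, without normalization, as 1 table per sample. Their methods name Trimmomatic, hisat2 and featureCounts on uniquely mapped pairs, and the submitters' processing notes name HISAT2, HTSeq and mm10. The libraries were strand-specific by the methods, and the annotation and the strand setting of the counting are not given in the sources used here. Positions and exon lengths were taken from GENCODE M21 (GRCm38), which holds 54495 of the 54532 identifiers.

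For every tissue separately, low counts were removed by filterByExpr (minimum count 10, total 15) and libraries scaled by TMM. SN-011 was then tested against control by edgeR's quasi-likelihood method (edgeR 4.0.16 under R 4.3.3; prior count 0.125), and p-values were adjusted by Benjamini-Hochberg over all genes tested, with a threshold of 0.05. Tissues were compared in a joint fit of 8 group means. CPM values are TMM-scaled within the tissue, those per kilobase over all samples, and log2 CPM used a prior count of 2. The scripts were tested on simulated data. The genes and lists were chosen with earlier results of these data known. All 10 genes are named in every tissue, and from the other lists those past the threshold, except 1 item of the list of other clock genes that is not reported here. *Thra*, *Sphk2* and individual markers at 0 were named after their values were seen. The study gives n = 3 per group without naming the mouse of each sample. Where samples of the same group share a mouse, p-values measure only a technical spread. Samples of different tissues that share a mouse are not independent in the joint fit. Same-numbered control and SN-011 samples of a tissue correlated at −0.308 to 0.290 as deviations from group means, not all above 0.1, so the numbers were not taken as pairs. The alternatives were DESeq2 1.42.0 and its size factors, library size alone, other filters, edgeR's exact test, a joint fit, a replicate block, limma 3.58.1 with 1 mouse per treatment and number, and each sample left out. Kidney was not analysed here.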

Additional observations from a re-analysis of the deposited data

Results flagged for a closer look

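The SN-011 effect on *Nfil3* differed between the stomach and the muscle in the joint edgeR fit of all 24 samples, which tested the difference itself. On the log2 scale the effect in the stomach minus that in the muscle was −1.59 ± 0.46 (SE), with an adjusted p of 0.0409, and all 3 treated samples exceeded all 3 controls in both tissues. The adjusted p was 0.0447 without muscle SN-011 replicate 2, the library with counts on the fewest genes. It was 0.123 with library size alone, 0.129 and 0.0690 without control replicates 1 and 2 in all tissues, and 0.123, 0.0909 and 0.165 without SN-011 replicates 1, 2 and 3, the difference staying between −1.88 and −1.18. In this pair of tissues 6.95% of all genes passed the same test.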

How the results depend on the processing

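Of the 40 fold changes of clock genes by tissue, 32 kept their direction in every alternative fit that could be made. The 8 values that changed sign at least at one setting were these. *Npas2* (heart) turned to −0.136 with library size alone and −0.056 with the replicate block, and lay between −0.41 and 0.22 with a sample left out, below 0 without control replicate 1 or SN-011 replicate 1. *Per3* (heart) lay between −0.15 and 0.67 with a sample left out, below 0 without control or SN-011 replicate 3, *Arntl* (heart) between −0.073 and 0.48, below 0 without SN-011 replicate 1, and *Clock* (heart) between −0.25 and 0.019, above 0 without SN-011 replicate 3. *Arntl* (stomach) turned to 0.043 with library size alone and 0.021 with the replicate block, and lay between −0.39 and 0.13, above 0 without control replicate 2 or 3, and *Dbp* (stomach) between −1.12 and 0.14, above 0 without control replicate 1. *Clock* (muscle) turned to −0.0050 with DESeq2's size factors, −0.0054 with DESeq2, −0.0059 with at least 10 counts in every sample, −0.196 with library size alone and −0.051 in the joint fit, and lay between −0.12 and 0.22, below 0 without control replicate 2 or SN-011 replicate 1. *Clock* (tongue) turned to 0.013 with library size alone and lay between −0.18 and 0.11, above 0 without control or SN-011 replicate 3.

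The number of clock genes called depended on the fit. In the heart it was 2 and became 5 without a filter on low counts, 3 (*Nr1d1*, *Per2* and *Nfil3*) with edgeR's exact test and 0 in the joint fit. It lay between 0 and 2 there with a sample left out. In the stomach it was 0 and became 2 without a filter, 1 with at least 10 counts in every sample, DESeq2 or edgeR's exact test, and 3 (*Per2*, *Nfil3* and *Nr1d1*) in the joint fit, with 0 for every sample left out. In the muscle it was 0 and became 1 (*Nfil3*) without a filter, with the count minimum, the exact test or the joint fit and 2 with DESeq2, with 0 to 1 for a sample left out. In the tongue it was 0 and became 2 (*Nfil3* and *Nr1d1*) without a filter, with DESeq2 and with the exact test, with 0 to 3 for a sample left out. Over all genes, the heart's 137 became 249 with library size alone, 1888 without a filter, 265 with the count minimum, 1361 with DESeq2, 912 with the exact test and 1 in the joint fit (1 to 787 with a sample left out). The stomach's 0 became 1368, 126, 2389, 1807 and 2738 without a filter, with the count minimum, DESeq2, the exact test and the joint fit (0 to 64). The muscle's 2 became 1 with DESeq2's size factors or library size alone, and 110, 75, 880, 442 and 474 in the same 5 fits (0 to 1103). The tongue's 0 became 18 without a filter, 418 with DESeq2, 246 with the exact test and 4 in the joint fit (0 to 2135). The cause of these differences was not tested.

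A replicate block gave 2 clock genes and 242 genes called (heart), 1 (*Per2*) and 181 (stomach), and 0 and 0 (muscle and tongue). The numbers were not shown to pair the samples. In the tongue every same-numbered pair correlated below −0.16. The difference of effect between tissues gave 1 call, *Nfil3* in the stomach minus the muscle, 2 with DESeq2 (*Nfil3* and *Per3*) and 0 to 1 with a replicate number left out. With library size alone the 1 call was *Per3* (2.93, adjusted p = 0.0475) and not *Nfil3*. The 21 calls between control tissues became 11 without control replicate 2 and 18 to 24 in all other fits. The difference in the phase index, −0.05 (heart), −0.15 (stomach), 1.16 (muscle) and 0.73 (tongue), became 0.71, 0.67, 2.57 and 2.14, turning the sign in the heart and stomach, with *Arntl* and *Npas2* against *Nr1d1*, *Per3* and *Dbp* alone. With a sample left out, an alternative chosen after seeing the data, it lay between −0.46 and 0.47 (heart), −0.72 and 0.42 (stomach), 0.59 and 1.88 (muscle) and 0.12 and 1.76 (tongue). *Per3* in the muscle could not be given with at least 10 counts in every sample, which it does not reach. With 3 samples per group and 1 unknown time of day per sample, neither the amplitude nor the phase of a rhythm can be estimated.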
